A study of Mus musculus with 14 samples.

Results

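The 10 transcripts described here are ones that alveolar type 2 cells, the surfactant-making cells of the lung's air sacs, are known for: Sftpc, Sftpb, Sftpa1, Sftpd, Slc34a2, Lamp3, Abca3, Napsa, Lyz1 and Cxcl15. They were chosen by name among the 43432 genes of a deposited RNA-seq table, all 10 were found in it, and all 10 passed the filter on low values (10 or more normalized counts in 2 or more libraries). The libraries were made from cells labelled siglecF+ and CD11C+, surface proteins that together mark alveolar macrophages, sorted from the lungs of 129S1 male mice that were 10 to 12 weeks old. After 3 U/k bleomycin (the unit as labelled) into the trachea, cells of high and of low MHCII were taken at 2 weeks and at 4 weeks, with 3 libraries in each of these 4 groups. MHCII-low cells of mice given water form the control group, with 2 libraries, replicates 1 and 3. Control cells of high MHCII are not analysed here, and the control label gives no time after water. Whether each library came from 1 mouse or a pool is not given in the sources used here, so p-values measure only the spread between these libraries. These were sorts of macrophages and not of epithelium, and a bulk library cannot tell fewer cells of a type from less RNA per cell.

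Pulmonary surfactant is a lipid and protein film that keeps air sacs open. Type 2 cells store it in lamellar bodies and secrete it, and alveolar macrophages take much of it up and break it down. The hydrophobic surfactant proteins SP-B and SP-C (Sftpb, Sftpc) spread the film, and the collectins SP-A and SP-D (Sftpa1, Sftpd) bind microbes. SP-C is made by type 2 cells, whereas SP-A, SP-B and SP-D are also made by club cells of the small airways. Abca3 pumps lipid into lamellar bodies, Lamp3 (DC-LAMP) sits in their membrane and is also a marker of mature dendritic cells, Napsa encodes napsin A, a protease that processes surfactant proteins, and Slc34a2 is a phosphate transporter. Lyz1 encodes lysozyme P, a close copy of the macrophage lysozyme of Lyz2, and Cxcl15 encodes lungkine, an epithelial chemokine that attracts neutrophils.

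Sequences are given for the promoters of some members and for the Lyz1 coding region. RefSeq tables for GRCm38.p6 gave a window for 7 of the 10 members. The 250 bases upstream of the start are printed for Sftpa1 and Sftpb, the surfactant protein genes with a window, and for Lamp3, the member whose levels followed Sftpc most closely. Capitals mark CTCAAG, a word in binding sites of the lung factor NKX2-1, and TGTTTAC or TGTTTGC, words of the kind that forkhead factors bind. Each was searched on both strands, none of the words can overlap another at these places, and GCAAACA in Sftpb is TGTTTGC on the opposite strand. The windows are chr14:41131538-41131787 on the plus strand, chr6:72304360-72304609 on the plus strand and chr16:19706366-19706615 on the minus strand.
Sftpa1: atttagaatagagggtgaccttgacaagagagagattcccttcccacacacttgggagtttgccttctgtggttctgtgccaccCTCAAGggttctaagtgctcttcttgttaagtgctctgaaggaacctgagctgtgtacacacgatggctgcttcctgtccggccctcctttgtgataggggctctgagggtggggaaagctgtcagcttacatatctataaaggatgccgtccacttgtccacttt
Sftpb: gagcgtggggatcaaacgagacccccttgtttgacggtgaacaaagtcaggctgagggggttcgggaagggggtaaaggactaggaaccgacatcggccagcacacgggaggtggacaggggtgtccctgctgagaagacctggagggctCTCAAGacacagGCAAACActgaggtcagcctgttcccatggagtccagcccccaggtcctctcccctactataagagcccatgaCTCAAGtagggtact
Lamp3: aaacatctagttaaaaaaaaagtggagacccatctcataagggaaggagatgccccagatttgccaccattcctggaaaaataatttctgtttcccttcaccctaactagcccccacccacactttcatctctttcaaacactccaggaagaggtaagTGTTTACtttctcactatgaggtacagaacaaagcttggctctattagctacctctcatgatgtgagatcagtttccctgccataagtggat

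CTCAAG lay 166 to 161 bases upstream of the Sftpa1 start and at 2 places upstream of Sftpb, 100 to 95 and 15 to 10 bases from the start. Of 32851 windows of this length, 13.3% held CTCAAG, 3.2% TGTTTAC and 4.3% TGTTTGC, so a single match is common. TATAAA, held by 12.4% of windows, began 30 bases upstream of Sftpa1 and 27 bases upstream of Cxcl15. The windows of Abca3, Slc34a2, Lyz1 and Cxcl15 held neither the NKX2-1 word nor a forkhead word. The Slc34a2 window belongs to a start 11272 bases inside the gene span as deposited, so bases upstream of that span were not searched. These matches are letters in a window and no measurement of binding.

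The coding sequence is shown for Lyz1, whose reads must be told from those of Lyz2, one of the most abundant transcripts of these cells. The coding sequences of Lyz1 and Lyz2 in GENCODE M21 have 447 bases each and differ at 22, an identity of 95.1%, with a longest identical run of 118 bases. Bases 1 to 150 follow for both, with the 14 differing bases in capitals.
Lyz1: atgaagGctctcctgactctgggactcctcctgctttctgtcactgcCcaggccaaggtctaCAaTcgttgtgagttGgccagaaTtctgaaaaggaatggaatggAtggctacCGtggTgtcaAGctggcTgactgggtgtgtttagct
Lyz2: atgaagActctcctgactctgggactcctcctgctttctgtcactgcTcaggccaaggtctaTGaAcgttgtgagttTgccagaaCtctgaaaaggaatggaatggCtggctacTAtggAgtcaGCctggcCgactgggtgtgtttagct

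Of the 50-base words in Lyz1 transcripts, 16.1% also occur in another gene's transcripts, and that gene is Lyz2. The share was 15.1% for Napsa, shared with the annotated gene Gm15396, 10.1% for Abca3, 5.1% for Lamp3, 0.5% for Cxcl15 and 0.1% for Sftpb. No word of Sftpa1, Sftpc, Sftpd or Slc34a2 was shared. How reads that fit several genes were counted is not given in the sources used here, so Lyz1 and Napsa values are less certain than the others.

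Recovered depth ranged from 15106415 to 88059630 reads per library, and mitochondrial ribosomal RNA took 3.12% to 28.99% of them. This share moved with the MHCII level at 2 weeks, with 22.51% to 26.25% in MHCII-high and 3.42% to 18.32% in MHCII-low libraries. It was 8.12% to 28.99% in MHCII-high and 3.12% to 23.15% in MHCII-low libraries at 4 weeks and 21.67% and 24.08% in controls, and replicate 1 had the lowest share in 4 of the 5 groups. The third library of 4-week MHCII-high cells stood apart on the second principal component. An 18-gene alveolar macrophage list with Siglecf and Marco summed to 1071943 to 2084207 normalized counts per library, and the 10 members to 6173 to 22516. Much of the macrophage sum was Lyz2, with 610231 to 1578624 normalized counts per library. Defining genes of other cells were not all absent: Epcam, the epithelial adhesion molecule, was at 196 to 592 normalized counts in every library. Ager, of alveolar type 1 cells, was at 27.1 to 162, and the club cell gene Scgb1a1 was much higher in some libraries, as given below.

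All 10 members had reads in every library, at very unequal levels and with very unequal spread. Between its lowest and highest library Lamp3 varied 218-fold and Sftpc 158-fold. Slc34a2 varied 33.5-fold, Sftpd 22.3-fold, Lyz1 18.7-fold, Sftpa1 8.23-fold, Cxcl15 7.9-fold and Sftpb 6.42-fold. Napsa and Abca3 were the steadiest, with ranges of 2.92-fold and 1.73-fold. The lowest levels rest on few reads: Sftpd on 4 to 14 reads in 2-week MHCII-low libraries and Lamp3 on 2 to 30 reads in the controls.

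**Figure D1:**
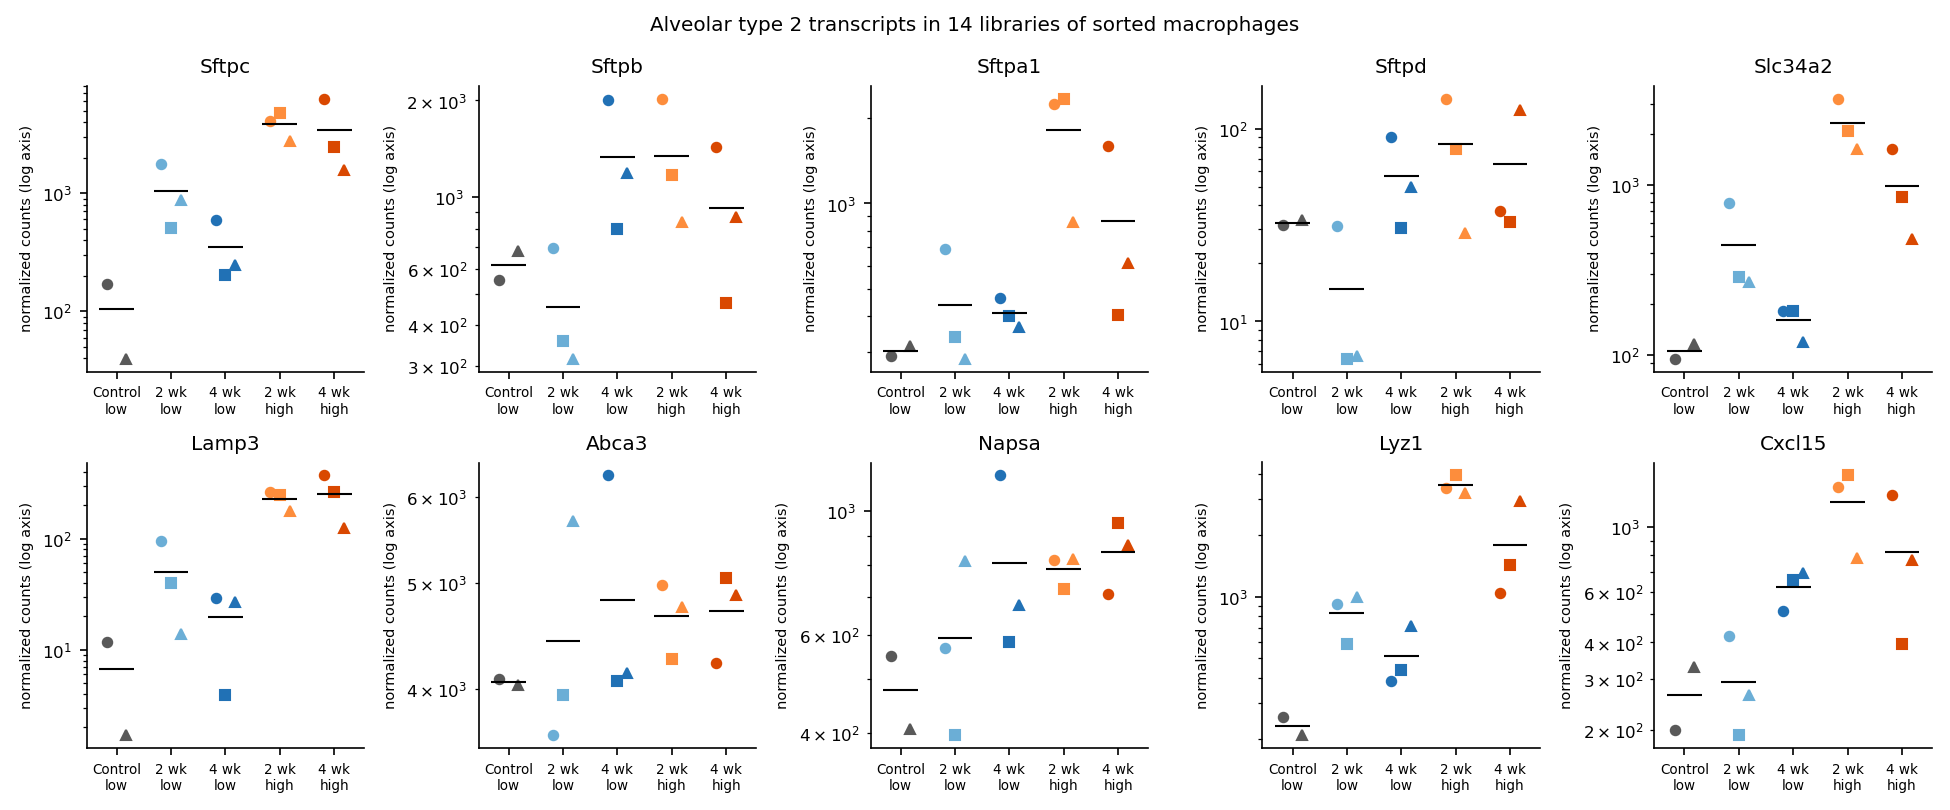
Normalized counts (log axis) of the 10 transcripts in the 14 libraries, by group; circles, squares and triangles are replicates 1, 2 and 3, and lines are group means. Sftpc, Slc34a2, Lamp3 and Lyz1 lie higher in all MHCII-high libraries than in all MHCII-low libraries of the same week, while Abca3 stays between 3627 and 6277 throughout.

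Compared per kilobase of exon, the leading member changed with the group. In 2-week MHCII-high cells Sftpc had the highest level, 4812 ± 1294 normalized counts per kb (SD, n = 3), followed by Lyz1 at 2780 ± 290.0 and Sftpb at 683 ± 310.0. Sftpc also led in 4-week MHCII-high cells, at 4256 ± 3103, and in 2-week MHCII-low cells, at 1303 ± 804, each time with Lyz1 second. In 4-week MHCII-low cells the first places went to Sftpb at 677 ± 315 per kb, Abca3 at 549 ± 142 and Sftpc at 433 ± 266, whose SDs overlap. In the controls Abca3 came first at 462 ± 4.24 (SD, n = 2) and Sftpc was the fifth, at 130.0 ± 114. Lamp3 and Sftpd were among the 3 lowest members per kb in every group.

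The sort allows the question of how MHCII-high and MHCII-low cells differ at the same time after bleomycin. At 2 weeks, 6 of the 10 members rose in MHCII-high cells and none fell by limma at an adjusted p of 0.05: Sftpc, Sftpb, Sftpa1, Slc34a2, Lyz1 and Cxcl15. Over all 17390 genes tested, 2.29% were called higher and 2.87% in either direction. At 4 weeks 4 members rose, Sftpc, Slc34a2, Lamp3 and Lyz1, against 1.96% of all genes called higher and 2.5% in either direction. The median log2 difference of the 10 members was 2.06 at 2 weeks and 0.54 at 4 weeks, beside 0.08 and -0.02 over all genes. As a mean of both weeks 6 members rose (Sftpc, Sftpa1, Slc34a2, Lamp3, Lyz1 and Cxcl15), with 5.0% of all genes called higher and 7.21% in either direction. The 2-week count fell to 3 when any 1 of MHCII-high replicates 1 and 2 and MHCII-low replicates 2 and 3 was left out, and also when no genes were filtered out. On recovered reads it was 4 by edgeR, 7 by limma-voom, which added Lamp3, and 7 by DESeq2, which added Lamp3 and Sftpd and lost Sftpc. Fitted on the 6 libraries of a week alone, 3 members passed at 2 weeks and 0 at 4 weeks, while the count for the mean of both weeks was 6. With the mitochondrial rRNA share as a covariate, the 2-week comparison called 6 members, the 4-week comparison 4 and the averaged one 7.

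Among the surfactant proteins, Sftpc was the most abundant per kilobase in both MHCII-high groups, and it rose at both times. It had 4058, 4801 and 2746 normalized counts in the 2-week MHCII-high libraries, in the order of their replicate numbers, against 1763, 505 and 874 in the MHCII-low libraries. At 4 weeks the values were 6258, 2438 and 1569 against 594, 203 and 247. Every MHCII-high library was above every MHCII-low library of its week, although the third 4-week MHCII-high library was below the first 2-week MHCII-low one. The log2 difference was 2.03 ± 0.53, adjusted p = 0.038 (limma, SE) at 2 weeks and 3.21 ± 0.53, adjusted p = 0.0009 at 4 weeks. The 2-week call was lost without any 1 of 5 of the 6 libraries (adjusted p 0.05 to 0.19 by limma; only leaving out MHCII-low replicate 1 kept it) and by edgeR (adjusted p = 0.073) and DESeq2 (adjusted p = 0.1) on recovered reads, while the mean of both weeks, 2.62 ± 0.37, adjusted p = 8e-05, kept its call under every alternative tried.

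Sftpb, SP-B, rose in MHCII-high cells at 2 weeks and did not pass at 4 weeks. Its 2-week values were 2022, 1169.8 and 841 normalized counts in MHCII-high and 698, 357 and 315 in MHCII-low libraries, with no overlap. At 4 weeks they were 1432, 471 and 872 in MHCII-high and 2014, 798 and 1187 in MHCII-low libraries, which overlap, and the highest value was in an MHCII-low library. The log2 difference was 1.55 ± 0.40, adjusted p = 0.036 (limma) at 2 weeks and -0.57 ± 0.40, adjusted p = 0.56 at 4 weeks. Leaving out 1 of MHCII-high replicates 1 and 2 or MHCII-low replicates 2 and 3 ended the 2-week call (adjusted p 0.12 to 0.21), as did edgeR on recovered reads (adjusted p = 0.054). With the mitochondrial rRNA share as a covariate, the 4-week difference was 0.01 and the mean of both weeks 1.20 (adjusted p = 0.013) in place of 0.49 ± 0.28, adjusted p = 0.34.

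The collectins split by abundance. Sftpa1, SP-A, had 2239, 2334 and 862 normalized counts in 2-week MHCII-high against 694, 339 and 284 in MHCII-low libraries, all higher in MHCII-high cells (log2 difference 2.02 ± 0.43, adjusted p = 0.011, limma). The same 4 libraries, left out 1 at a time, each ended that call, at adjusted p 0.054 to 0.096. At 4 weeks Sftpa1 had 1590.1, 403 and 617 against 464, 403 and 368, with 2 libraries above the MHCII-low range and 1 within it (0.84 ± 0.43, adjusted p = 0.37). Sftpd, SP-D, stayed at or below 143 normalized counts in every library and did not pass by limma: at 2 weeks it had 143, 78.6 and 28.7 in MHCII-high and 31.3, 6.4 and 6.6 in MHCII-low libraries (log2 difference 2.52 ± 0.87, adjusted p = 0.14, limma; 95% interval 0.71 to 4.32). On recovered reads DESeq2 called this 2-week difference of Sftpd (log2 2.56, adjusted p = 0.045).

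Of the lamellar body and transport genes, Slc34a2 and Lamp3 rose and Abca3 and Napsa passed no test. Slc34a2 had 3198, 2088 and 1618 normalized counts in 2-week MHCII-high and 781, 288 and 271 in MHCII-low libraries, and 1623, 847 and 484 against 182, 183 and 121 at 4 weeks. All MHCII-high libraries were above the MHCII-low libraries of their week, and the log2 difference was nearly equal at both times: 2.49 ± 0.42, adjusted p = 0.0015 and 2.45 ± 0.42, adjusted p = 0.0014 by limma. Lamp3 had 263, 247 and 177 against 96.2, 39.8 and 13.8 at 2 weeks and 371, 265 and 125 against 29.2, 3.9 and 26.7 at 4 weeks, again with no overlap within a week. Its log2 difference was 2.55 ± 0.87, adjusted p = 0.13 at 2 weeks and 3.86 ± 0.87, adjusted p = 0.017 at 4 weeks (limma), and the 4-week call ended when MHCII-high replicate 1 (adjusted p = 0.06) or MHCII-low replicate 2 (adjusted p = 0.096) was left out. At 2 weeks limma-voom (log2 2.97, adjusted p = 0.022) and DESeq2 (2.22, adjusted p = 0.041) on recovered reads did call Lamp3.

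Abca3, the lipid pump, was among the steadiest members. Its group means lay between 4062 ± 36.3 normalized counts (SD, n = 2) in controls and 4828 ± 1255 (SD, n = 3) in 4-week MHCII-low cells. The log2 difference between MHCII-high and MHCII-low cells was 0.10 ± 0.19, adjusted p = 0.87 at 2 weeks (limma; 95% interval -0.29 to 0.50) and -0.01 ± 0.19, adjusted p = 1 at 4 weeks (-0.40 to 0.39). An increase of the size seen for Slc34a2 lies outside both intervals. Napsa, the surfactant protease, had 816, 724 and 820.1 normalized counts in MHCII-high and 568, 397 and 814 in MHCII-low libraries at 2 weeks, which overlap, with a log2 difference of 0.47 ± 0.29, adjusted p = 0.48 (95% interval -0.14 to 1.07).

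Lyz1 and Cxcl15, the secreted defence genes, both rose in 2-week MHCII-high cells. Lyz1 had 3421, 3918 and 3203 normalized counts in 2-week MHCII-high and 917, 589 and 996 in MHCII-low libraries, and 1039, 1422 and 2922 against 387, 435 and 715 at 4 weeks. No library of 1 level overlapped the other within a week, and the log2 difference was 2.10 ± 0.31, adjusted p = 0.00041 at 2 weeks and 1.72 ± 0.31, adjusted p = 0.0026 at 4 weeks by limma. Cxcl15 had 1381, 1511 and 785 against 421, 191 and 264 at 2 weeks, without overlap (2.08 ± 0.38, adjusted p = 0.0032). At 4 weeks Cxcl15 had 1290.4, 395 and 770.4 against 512, 659.8 and 693, where 2 MHCII-high libraries were above all MHCII-low libraries and 1 below (0.25 ± 0.38, adjusted p = 0.82).

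**Figure D2:**
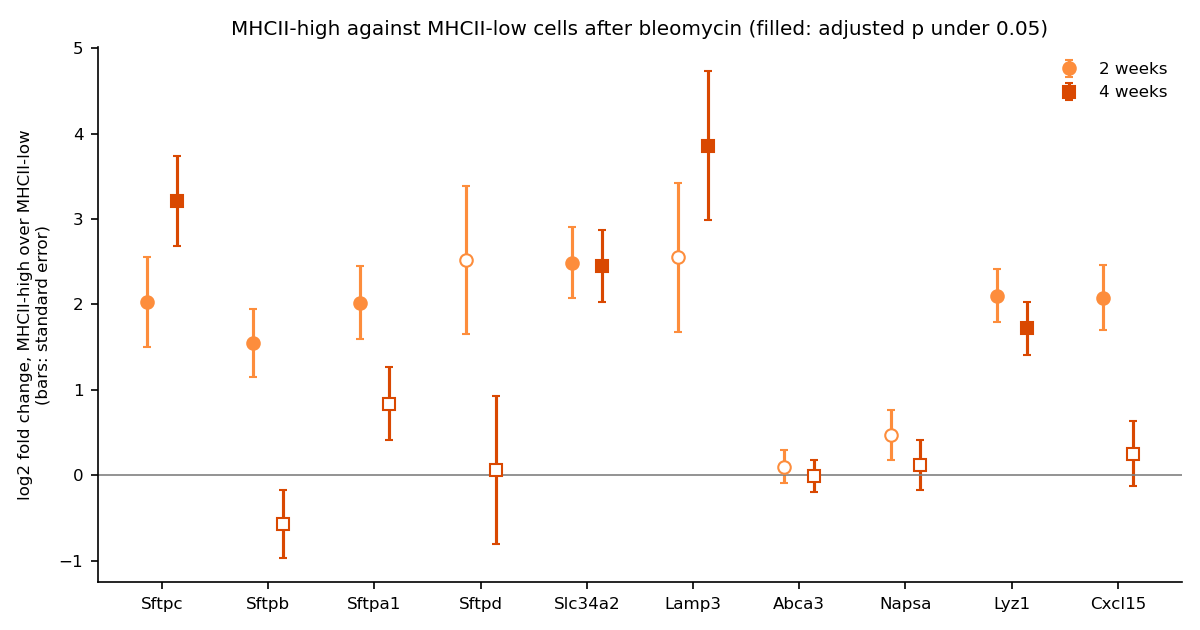
Log2 fold change of MHCII-high over MHCII-low cells (y axis, log2(value + 1) scale) for the 10 transcripts at 2 weeks (circles) and 4 weeks (squares); bars are standard errors and filled symbols passed an adjusted p of 0.05 in limma. Slc34a2 and Lyz1 sit at similar heights at both times, while Sftpb and Cxcl15 are filled at 2 weeks and open near or below 0 at 4 weeks.

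Counted by libraries, 7 members had all 3 MHCII-high libraries above all 3 MHCII-low libraries at 2 weeks, beside 12.9% of all genes tested. At 4 weeks it was 4 members, Sftpc, Lamp3, Slc34a2 and Lyz1, beside 8.26% of all genes. No member had all MHCII-high libraries below at either time. Without the third 4-week MHCII-high library, which stood apart, the same 4 members passed at 4 weeks by limma. The difference between the weeks was tested itself, as an interaction, and no member passed. Sftpb came nearest, with a log2 interaction of -2.12 ± 0.57, adjusted p = 0.42, followed by Cxcl15 with -1.84 ± 0.54, adjusted p = 0.6; these 2 were the members with an unadjusted p under 0.05. Limma called 0.0% of all genes in this interaction, with 987 of 17390 at a raw p under 0.05; edgeR and limma-voom on recovered reads called 0 and DESeq2 56, none of them a member.

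Against the water controls, MHCII-low cells of bleomycin-treated mice had more of 3 members at 2 weeks, Sftpc, Slc34a2 and Lyz1, by limma, where 1.48% of all genes were called higher and 1.91% in either direction. The controls had 169 and 39.6 normalized counts of Sftpc in replicates 1 and 3, 95.4 and 117 of Slc34a2 and 258 and 209 of Lyz1. These 3 genes and Lamp3 were higher in each 2-week MHCII-low library than in both controls, as were 13.7% of all genes. The log2 differences were 3.47 ± 0.59, adjusted p = 0.0017 for Sftpc, 1.80 ± 0.35, adjusted p = 0.006 for Lyz1 and 1.89 ± 0.47, adjusted p = 0.038 for Slc34a2. With only 2 controls, none of the 3 calls held without control replicate 3 (adjusted p 0.12 to 0.2; the log2 difference of Sftpc was then 2.43), and that of Slc34a2 was also lost without control replicate 1 (adjusted p = 0.31) or MHCII-low replicate 1 (adjusted p = 0.23). Fitted on these 5 libraries alone, 0 members passed, and on recovered reads limma-voom called 1 and DESeq2 4, adding Lamp3 (log2 2.80, adjusted p = 0.032). With the mitochondrial rRNA share as a covariate 2 passed. RNA of MHC class II genes differed in this comparison too. Of 8 such genes 5 were called higher by limma, with a median log2 difference of 1.92. H2-Ab1 had 422 to 1276 normalized counts in 2-week MHCII-low libraries and 99.7 to 118 in controls. The part of the MHCII level in the differences of the members was not tested.

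The other surfactant proteins did not follow Sftpc in that comparison. Sftpb had 552 and 684 normalized counts in the controls and 698, 357 and 315 in 2-week MHCII-low cells, a log2 difference of -0.52 ± 0.45, adjusted p = 0.71. Sftpd was lower in all 3 of the 2-week MHCII-low libraries than in both controls (31.6 and 33.6), as were 21.6% of all genes, but its difference of -1.46 ± 0.97, adjusted p = 0.59 did not pass. Sftpa1 and Cxcl15 differed from control by 0.42 ± 0.48, adjusted p = 0.8 and 0.11 ± 0.43, adjusted p = 0.96.

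At 4 weeks no member passed against control in MHCII-low cells, where limma called 0.046% of all genes, 8 in number. H2-Ab1 was among them, the only 1 called higher of 8 MHC class II genes, whose median log2 difference was 0.92. At an unadjusted p under 0.05 there were 5 members (Sftpc, Sftpb, Napsa, Lyz1 and Cxcl15), beside 1065 of the 17390 genes tested. On recovered reads edgeR, limma-voom and DESeq2 called 0 members. Sftpc was at 594, 203 and 247 normalized counts, each above both controls, with a log2 difference of 1.90 ± 0.59, adjusted p = 0.53 (limma). In total 7 members had all 3 of the 4-week MHCII-low libraries above both controls, beside 11.4% of all genes: Sftpa1, Sftpb, Sftpc, Slc34a2, Napsa, Lyz1 and Cxcl15. MHCII-high cells had no controls of their own, so they were only set beside the MHCII-low controls, without a test and with the MHCII level differing too. All 3 libraries lay above both controls for 9 members at 2 weeks (16.7% of all genes), all but Sftpd, and for 8 at 4 weeks (11.8%), all but Sftpd and Sftpb.

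Between 2 and 4 weeks no member passed within either MHCII level, where limma called 0.857% of genes in MHCII-low and 1.07% in MHCII-high cells. At an unadjusted p under 0.05 there were 6 members in MHCII-low and 3 in MHCII-high cells, beside 1300 and 2426 of the 17390 genes tested. On recovered reads DESeq2 called 2 in MHCII-low cells, Sftpb and Slc34a2, limma-voom called Slc34a2 in MHCII-high cells, and edgeR called none. In MHCII-low cells Sftpb had the smallest p among the members, with 698, 357 and 315 normalized counts at 2 weeks and 2014, 798 and 1187 at 4 weeks, all higher at 4 weeks (1.53 ± 0.40, adjusted p = 0.086). Without the first 2-week MHCII-low library it passed, at an adjusted p of 0.047. Sftpc went the other way, from 1763, 505 and 874 to 594, 203 and 247 (-1.56 ± 0.53, adjusted p = 0.29), with 1 overlap. In MHCII-high cells Lyz1 came nearest (-1.10 ± 0.31, adjusted p = 0.09), and it passed without the third 4-week library (adjusted p = 0.0097). Slc34a2 (-1.34 ± 0.42, adjusted p = 0.13) and Sftpa1 (-1.17 ± 0.43, adjusted p = 0.21) passed without the first 4-week library, at adjusted p 0.048 and 0.045.

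Ratios within a library do not depend on how libraries were scaled, and they separated Sftpc from Sftpb. Per kilobase, Sftpc exceeded Sftpb in all 6 MHCII-high libraries, 4.91, 10.0 and 7.99 times at 2 weeks and 10.7, 12.7 and 4.41 times at 4 weeks. The 2-week MHCII-low libraries had ratios of 6.18, 3.46 and 6.79, 2 of them within the MHCII-high range and 1 below it. In 4-week MHCII-low cells the ratio was 0.722, 0.622 and 0.51, and in the controls 0.752 and 0.142, so that Sftpb exceeded Sftpc in all 5 of these libraries. No library lay between 0.752 and 3.46.

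Lyz1 was set against Lyz2, whose mean ± SD was 1390173 ± 164317 normalized counts in MHCII-high cells at 2 weeks and 615689 ± 7719 in controls. Lyz1 amounted to 0.268%, 0.298% and 0.203% of Lyz2 in the MHCII-high libraries of 2 weeks and to 0.124%, 0.174% and 0.234% in those of 4 weeks. In MHCII-low libraries the share was 0.0735%, 0.0617% and 0.0718% at 2 weeks, 0.0499%, 0.0572% and 0.0755% at 4 weeks, and 0.0415% and 0.0343% in controls. Each MHCII-high library was thus above each MHCII-low library also relative to Lyz2. Whether some Lyz2 reads were counted as Lyz1 was not tested.

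**Figure D3:**
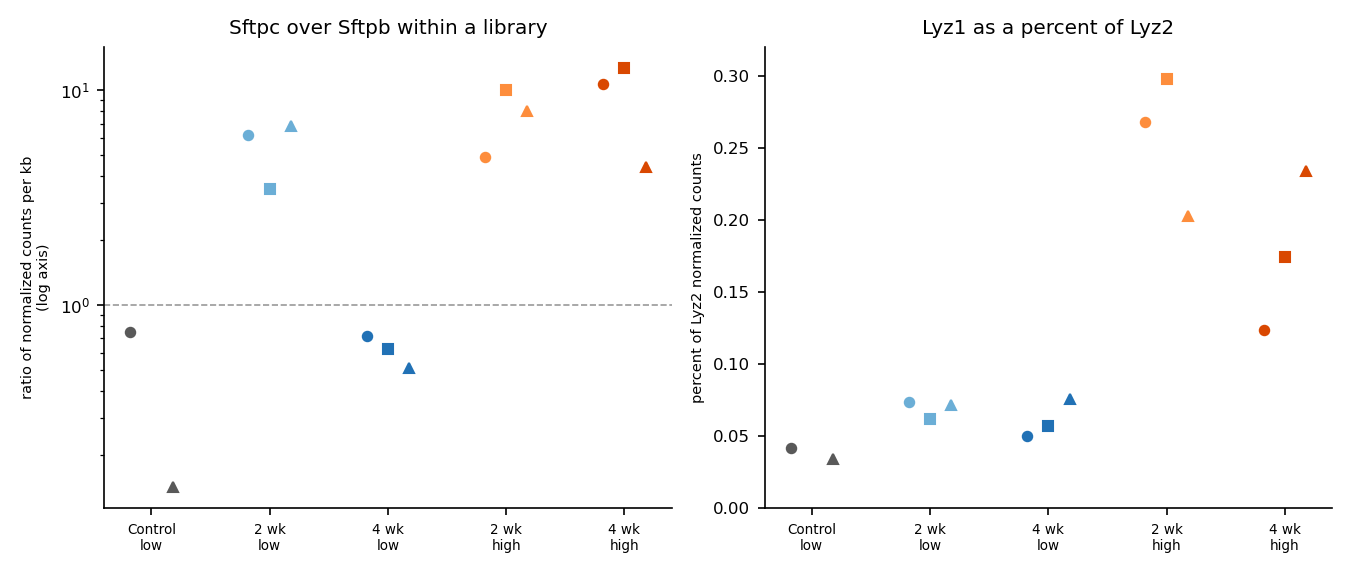
Ratios within each of the 14 libraries, by group (circles, squares and triangles are replicates 1, 2 and 3): Sftpc over Sftpb per kilobase on a log axis with equality dashed, and Lyz1 as a percent of Lyz2 on a linear axis from 0. The Sftpc over Sftpb ratio is below 1 in the controls and 4-week MHCII-low libraries and at least 3.46 elsewhere, and Lyz1 reaches 0.124% or more of Lyz2 in the 6 MHCII-high libraries and at most 0.0755% in the other 8.

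Over the 14 libraries some members moved together more than others, described here by Pearson's r of log2(value + 1), which includes the differences between the groups. Sftpc followed Lamp3 (r = 0.95), Slc34a2 (0.92), Lyz1 (0.85) and Sftpa1 (0.78), with lower values for Sftpb (0.30), Sftpd (0.27) and Abca3 (0.24). Sftpb followed Sftpd (0.83) and Cxcl15 (0.78), and Abca3 followed Napsa (0.82). These were not separate sets, since Sftpa1 also followed Cxcl15 (0.87) and Sftpb (0.65). After the group means were subtracted, replicates of 1 group still shared part of this: r was 0.73 for Sftpc with Lamp3, 0.82 for Sftpb with Sftpa1, 0.85 for Sftpa1 with Cxcl15 and 0.86 for Abca3 with Napsa. For Sftpc with Sftpb r was then 0.56, above the 0.30 that includes the groups. Lyz1 kept no such relation to Sftpc (-0.22). The first library was the highest of its group for 7 of the 10 members in MHCII-low cells at either time, and in MHCII-high cells for 5 at 2 weeks and 6 at 4 weeks.

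Of all genes tested, the 8 most like Sftpc over the 14 libraries were Cpne2 (r = 0.949), Lamp3 (0.946), St6gal1 (0.938), Plxnb2 (0.935), Ckb (0.935), Blnk (0.93), Plxna4 (0.929) and Plekho1 (0.929). Lamp3 was the only member among them. Slc34a2 ranked 16, Lyz1 91, Sftpa1 247, Cxcl15 827, Napsa 1153, Sftpb 3365, Sftpd 3787 and Abca3 4183. The MHC class II gene H2-Ab1, by whose protein class the cells were sorted, ranked 27 (r = 0.90) and H2-Aa 36 (r = 0.89). The ranks are a description over 14 libraries that share 5 groups.

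Other genes of type 2 cells moved in part with the members. From a list of 15 further type 2 cell genes, 5 rose and none fell in MHCII-high cells as a mean of both weeks by limma. Of all genes, 5.0% were called higher. The list had a median log2 difference of 0.58 beside 0.02 over all genes, with 11 of the 15 above 0. At 2 weeks its median was 1.12, with 14 above 0 and 2 called. At 4 weeks the median was 0.06, with 8 above 0 and 2 called. The 5 called as a mean of both weeks were Hc, complement C5 (3.42 ± 0.45, adjusted p = 3.4e-05, limma), Etv5, a transcription factor of type 2 cells (1.57 ± 0.31, adjusted p = 0.0027), Cldn18, a tight junction protein (1.35 ± 0.29, adjusted p = 0.005), Lpcat1, which makes surfactant phospholipid (0.69 ± 0.15, adjusted p = 0.0055), and the protease gene Ctsh. Hc had 652, 348 and 514 normalized counts in MHCII-high and 103, 47.8 and 60 in MHCII-low libraries at 2 weeks, and 764, 202 and 312 against 36, 18.6 and 16 at 4 weeks. Nkx2-1, which switches on surfactant genes, varied within groups, with 87.5, 171 and 4.3 normalized counts in 2-week MHCII-high libraries, and did not pass (1.73 ± 0.74, adjusted p = 0.18).

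No gene of the general epithelial and airway lists rose in MHCII-high cells as a mean of both weeks. None of 11 general epithelial genes tested passed, with a median log2 difference of -0.52, and Epcam differed by -0.02 ± 0.25, adjusted p = 0.98 (95% interval -0.54 to 0.50). Of 12 club and ciliated cell genes 2 fell and none rose, with a median of -0.94, beside 2.21% of all genes called lower: Scgb1a1, the club cell secretory protein (-1.97 ± 0.52, adjusted p = 0.021), and Cyp2f2, a club cell oxidase (-1.35 ± 0.41, adjusted p = 0.048). By week, the general epithelial median was 0.08 at 2 weeks and -1.62 at 4 weeks, and the club and ciliated median -0.12 and -1.91. Over all genes it was 0.08 and -0.02. No gene of either list was called at 2 weeks. At 4 weeks limma called only the epithelial gene Elf3, as lower, beside 93 of 17390 genes. Scgb1a1 had 24712, 19013 and 21293 normalized counts in 4-week MHCII-low libraries, the group in which Sftpb exceeded Sftpc, and 8983 and 18599 in controls. At 2 weeks it had 7925, 3768 and 2228 in MHCII-low and 4951, 2208 and 162 in MHCII-high libraries, and at 4 weeks 6835, 3333 and 4478 in MHCII-high libraries. The summed club and ciliated list was 30423 to 43273 in 4-week MHCII-low libraries and 14408 to 28874 in controls, against 1755 to 12561 over the other 3 groups.

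Within groups, deviations of Scgb1a1 went with those of Sftpa1 (r = 0.76), Sftpb and Sftpd (0.68 each), Cxcl15 (0.62) and Slc34a2 (0.58), and less with those of Sftpc (0.26) or Lamp3 (0.26), over 14 libraries. Deviations of the type 2 cell gene Hc also went with those of Sftpb (0.71), Cxcl15 (0.62), Slc34a2 (0.61) and Sftpa1 (0.55). They went less with those of Sftpd (0.29), Sftpc (0.16) or Lamp3 (-0.0), and r between Scgb1a1 and Hc was 0.34. From 2 to 4 weeks in MHCII-low cells Cyp2f2 rose (2.72 ± 0.58, adjusted p = 0.019, limma) and Scgb1a1 differed by 2.41 ± 0.73, adjusted p = 0.19, beside the difference of Sftpb given above. The part of airway cells or their RNA in the values of Sftpb, Sftpd, Sftpa1, Cxcl15 and Slc34a2 was not tested.

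**Figure D4:**
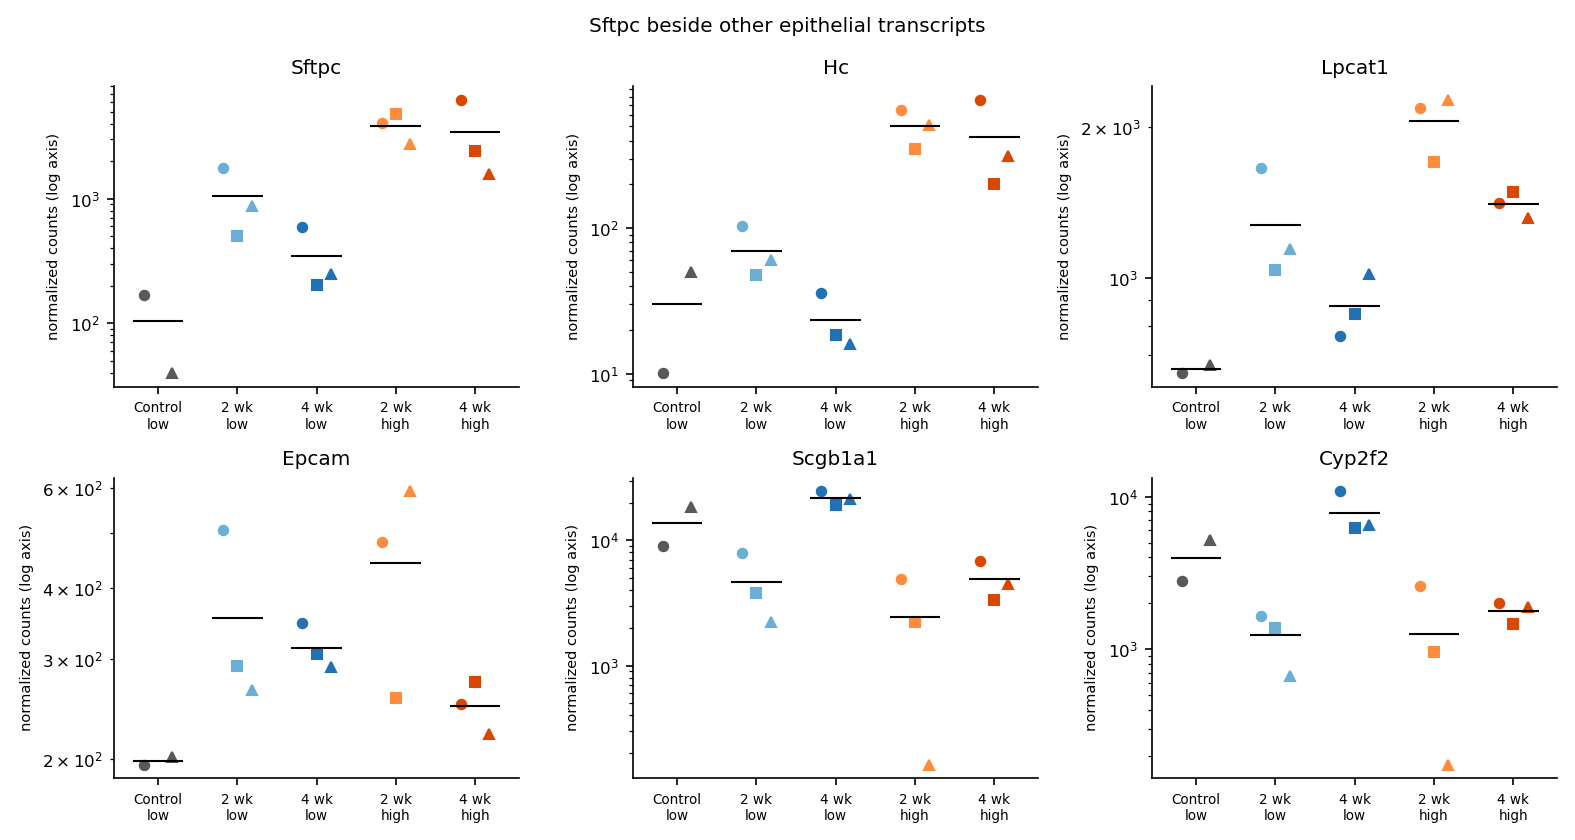
Normalized counts (log axes) of Sftpc, of Hc and Lpcat1 from the further type 2 cell genes, of the epithelial gene Epcam and of the club cell genes Scgb1a1 and Cyp2f2, by group; circles, squares and triangles are replicates 1, 2 and 3, and lines are group means. Hc is highest in the MHCII-high groups like Sftpc, whereas Scgb1a1 and Cyp2f2 are highest in 4-week MHCII-low cells and Epcam stays between 196 and 592.

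Markers of other cells also moved with the MHCII level. As a mean of both weeks, limma called 5.0% of all genes higher in MHCII-high cells, 2.21% lower and 7.21% in either direction. The alveolar macrophage list moved as well: of its 18 genes none rose and 8 fell, with a median log2 difference of -0.38. Marco, Krt79, Fabp1 and the sort marker Siglecf were among the 8. Of 12 dendritic cell genes 8 rose in that comparison and none fell. The 8 included Irf4 (2.63 ± 0.21, adjusted p = 2.6e-08, limma) and Flt3, a dendritic cell growth factor receptor (6.56 ± 0.81, adjusted p = 1.3e-05). Flt3 had 260.4, 91.7 and 119 normalized counts in 2-week and 187, 281 and 229 in 4-week MHCII-high libraries, against 0 to 17.9 in the MHCII-low libraries, controls included. The summed dendritic list was 5130 to 9354 in MHCII-high libraries and 1177 to 1807 in MHCII-low libraries. All 8 B lymphocyte genes rose, with a summed level of 929 to 4087 in MHCII-high and 40.0 to 2215 in MHCII-low libraries. In these lists Fcmr, Cd79b, Flt3 and Cd209a were among the genes that passed the filter on low values only through MHCII-high libraries. For such genes a rise was the only direction open, so their calls add no support. Of 12 alveolar type 1 cell genes 2 rose, Hopx (1.65 ± 0.31, adjusted p = 0.0013) and Pdpn (3.17 ± 0.59, adjusted p = 0.0014). The type 1 median was 1.0 at 2 weeks, with 10 of 12 above 0, and -0.14 at 4 weeks. Of 7 T lymphocyte genes tested Il7r rose (1.78 ± 0.21, adjusted p = 7.2e-06, limma) and Cd2 fell (-0.65 ± 0.11, adjusted p = 0.0003). Cd2 was at 5004 to 11865 normalized counts per library, whereas Cd3e stayed at or below 222 and Cd3g at or below 39.1. The calls of Il7r and Cd2 are therefore not read as a change in T lymphocytes. None of 6 neutrophil, 4 eosinophil and 10 fibroblast and endothelial genes tested passed. The part of these cells, or of the sort, in the differences of Lamp3 and the other members was not tested.

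Some genes of the macrophage side of surfactant turnover differed between the MHCII levels. Of 21 genes for the uptake and breakdown of surfactant and their regulators, none rose and 3 fell in MHCII-high cells as a mean of both weeks, with a median log2 difference of -0.20 beside 0.02 over all genes, of which 2.21% were called lower. They were Marco, a scavenger receptor (-1.55 ± 0.15, adjusted p = 5.9e-07), Pla2g15, a lysosomal phospholipase (-0.54 ± 0.11, adjusted p = 0.0035), and Pparg, the lipid-handling regulator of alveolar macrophages (-0.37 ± 0.10, adjusted p = 0.027). In 2-week MHCII-low cells 4 of the 21 rose against control and 2 fell by limma, which called 258 of all 17390 genes higher and 74 lower. The scavenger receptor Msr1 (1.68 ± 0.25, adjusted p = 0.00035), the GM-CSF receptor subunit Csf2rb (0.82 ± 0.17, adjusted p = 0.0092), Ctsd and Csf2rb2 rose, and the lipid transporters Abca1 (-1.30 ± 0.19, adjusted p = 0.00033) and Cd36 (-1.33 ± 0.26, adjusted p = 0.0062) fell. There were only 2 controls, and fitted on the groups compared alone limma called 36 of the 17390 genes. None of the 21 passed at 4 weeks against control.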

How the data were processed

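RNA-seq of 14 libraries was deposited as 1 table. Per the file headers its values are normalized counts, a signal the authors made from gene counts; GC percent and exon length are also as deposited. The submitters' processing notes name STAR, DESeq2 and mm10 without roles; which program counted reads, and on which annotation, is not given in the sources used here. Values were whole multiples of 1 read's worth in each library (99.95% or more within 0.05), which gave reads and depth. Spans equalled GENCODE M21 (GRCm38) for 90.1% of 42462 shared genes and 6 of 10 members.

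The test was limma 3.58.1 with a trend on log2(value + 1), all 14 libraries, 1 coefficient per group, on the 17390 genes that reached 10 normalized counts in 2 or more libraries. P-values were adjusted by Benjamini-Hochberg over all genes in each of 8 comparisons, and calls needed an adjusted p under 0.05. The log2 scale understates changes of low genes. Values given as ± after a log2 difference are standard errors. edgeR 4.0.16, limma-voom and DESeq2 1.42.0 on recovered reads were alternatives. The limma script was tested on simulated data with the same spread set for every gene, unlike the unequal spread of the members. Named were all members, up to 4 genes past the threshold per list, defining markers, and the 8 genes most like Sftpc. The members and lists were chosen with earlier results of these data known.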

Additional observations from a re-analysis of the deposited data

How the results depend on the processing

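The 19 calls of a member in a comparison kept their direction under every alternative tried. Of these, 9 were never lost: the 6 for the mean of both weeks and those of Slc34a2, Lyz1 and Cxcl15 at 2 weeks. Few reads limit Sftpd and Lamp3, which rest on as few as 4 and 2 reads. Of 61 uncalled differences, 21 changed sign under some alternative and 11 passed under some. The cause of the changes below was not tested.

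The count of members called for MHCII-high against MHCII-low at 2 weeks (6) became 3 with no filter on low values (more genes tested) and 3 with only the groups compared (fewer samples), 4 with edgeR, 7 with limma-voom, 7 with DESeq2, and 3 to 6 when 1 library was left out. The 4-week count (4) became 0 with only the groups compared. For 2-week MHCII-low cells against control the count (3) became 0 with only the groups compared, 1 with limma-voom, 4 with DESeq2, and 0 to 3 when 1 library was left out. For MHCII-low cells at 4 against 2 weeks (0) it became 1 with the mitochondrial rRNA share as a covariate, 2 with DESeq2, and 0 to 1 with 1 library left out. For MHCII-high cells at 4 against 2 weeks (0) it became 1 with limma-voom and 0 to 2 with 1 library left out.

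Same-numbered MHCII-high and MHCII-low libraries deviated from their group means with r of 0.107, 0.068 and 0.025 at 2 weeks and 0.009, 0.034 and 0.015 at 4 weeks, and not every library correlated best with its own number, so the numbers were not taken as pairs; the labels do not say what a number marks. With the replicate number as a block, 1 member (Sftpc) passed in MHCII-low cells at 4 weeks against control, and 2 (Sftpb and Sftpc) from 2 to 4 weeks; the block changed no other call of a member.

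These log2 differences changed sign. With the mitochondrial rRNA share as a covariate, Sftpa1 was -0.21 and -0.26 in MHCII-low cells at 2 and 4 weeks against control and -0.04 between the weeks, Sftpb 0.01 between MHCII levels at 4 weeks, Sftpd -0.05 in 4-week MHCII-low cells against control, Lamp3 -0.45 in MHCII-high cells between the weeks and Cxcl15 -0.36 in 2-week MHCII-low cells against control. Scaled to totals without mitochondrial rRNA, Abca3 and Cxcl15 were -0.11 and -0.09 in 2-week MHCII-low cells against control. TMM factors gave 0.0 for Sftpa1 in MHCII-low cells between the weeks, 0.0 for Sftpd between MHCII levels at 4 weeks and -0.02 for Abca3 as the mean of both weeks. Removal of a GC trend, chosen after seeing the data, gave -0.02 for Sftpa1 in MHCII-low cells between the weeks, 0.09 for Abca3 between MHCII levels at 4 weeks, and interactions of 0.03 for Abca3 and 0.08 for Slc34a2. On recovered reads, edgeR gave -0.09 for Sftpa1 in MHCII-low cells between the weeks, 0.0 for Abca3 in MHCII-high cells between the weeks, -0.05 for Abca3 as the mean of both weeks and an interaction of 0.2 for Slc34a2; DESeq2 gave -0.09 for Sftpa1 and 0.24 for Slc34a2 in the same 2 places. Limma-voom gave -0.13 for Lamp3 in MHCII-high cells between the weeks, and for Abca3 -0.03 for the 2-week difference and -0.06 as the mean of both weeks.

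With 1 library left out, the ranges that crossed 0 were, between MHCII levels at 2 weeks, -0.03 to 0.3 for Abca3. At 4 weeks they were -0.54 to 0.45 for Sftpd, -0.12 to 0.2 for Abca3, -0.08 to 0.42 for Napsa and -0.16 to 0.69 for Cxcl15, and as the mean of both weeks -0.02 to 0.15 for Abca3. In 2-week MHCII-low cells against control they were -0.1 to 0.22 for Abca3 and -0.25 to 0.47 for Cxcl15. From 2 to 4 weeks in MHCII-low cells they were -0.24 to 0.4 for Sftpa1 and -0.08 to 0.32 for Abca3. In MHCII-high cells they were -0.95 to 0.05 for Sftpc, -0.96 to 0.17 for Sftpd, -0.31 to 0.47 for Lamp3, -0.05 to 0.09 for Abca3 and 0.0 to 0.21 for Napsa. Interactions ran from -0.31 to 0.1 for Abca3 and from -0.53 to 0.39 for Slc34a2.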
